A study of Mus musculus with 2 samples.

Results

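The cosignals of antigen-presenting cells are the surface and secreted proteins that T cells read beside the antigen itself. Here 10 such genes were followed, taken by name from 1 list: Cd80, Cd86, Cd40, Cd83, Icosl, Cd274, Pdcd1lg2, Cd276, Lgals9 and Pvr. This list and those set beside it were chosen with earlier results of these data known. Their shares beside those of all genes are therefore descriptions only. A probe set was included where the platform annotation names 1 of these genes and no other, which gave 21 of the 22690 probe sets and reached all 10 genes. The samples were eosinophils (CD11b+, CD11c intermediate, MHCII-, SiglecF+) and dendritic cells (CD11c+MHCII+), both sorted without stimulation from lamina propria of the small intestine of 8-week-old C57BL/6 mice with no transgene or treatment named in the labels. Each population was measured on 1 3' expression array. The dendritic cell gate rests on a pair of surface proteins that some gut macrophages also carry, and the number of animals behind each sort is not given by the labels.

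T cells need a signal through the CD28 family besides the antigen receptor. CD80 and CD86, the B7 proteins of activated antigen-presenting cells, bind CD28, which stimulates, and CTLA-4, which inhibits. ICOSL binds ICOS on activated T cells, whereas PD-L1 (Cd274) and PD-L2 (Pdcd1lg2) bind the inhibitory receptor PD-1. CD40 works in the other direction: T cells that carry CD40 ligand engage it on the presenting cell, which then raises its own B7 proteins. In the gut, dendritic cells that take antigen to the draining lymph node carry these proteins when they mature.

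Values are MAS5 signals in linear units. A floor was set at the median of the pooled signals, 134.7 units, and any dimmer signal was set to that value before the log2 difference, eosinophils minus dendritic cells, was taken. Of all probe sets, 52.8% were above the floor in eosinophils and 47.2% in dendritic cells. A fold with 1 array under the floor is therefore a lower bound, written "at least", and a probe set under the floor on both arrays has no fold. Germ cell, lens, hair and sensory genes, taken as background, reached 182 units at their 95th percentile, so a signal between 134.7 and 182 units may be background too. Each population has a single array, so replicate error is unknown and no test was possible. As a yardstick, probe sets that share a gene scattered by a pooled SD of 0.73 (log2; 1.65-fold) in 4402 probe sets from 1766 genes.

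The arrays followed their labels. Of the 7 eosinophil markers with a probe set, 6 were above the floor in eosinophils and 1 in dendritic cells, with Siglecf, a gene of the gate, at 6977 units in eosinophils against 112 in dendritic cells. Of the 9 dendritic cell markers, 3 were above the floor in eosinophils and 8 in dendritic cells. The class II chain H2-Aa, also of the gate, had a signal of 155 units in eosinophils, against 34015 units in dendritic cells. The eosinophil marker Prg2 and the dendritic cell marker Cd209a were under the floor on both arrays. The ratio of the 3' to the 5' control probe set, a sign of RNA integrity and labelling, lay between 6.38 and 9.81 on both arrays for beta-actin and Gapdh, with no common order of the arrays. The 3' control was thus several-fold the brighter on both arrays. The bearing of this on dim or discordant probe sets was not tested.

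The cosignals divided into a set that was bright in dendritic cells and at or near the floor in eosinophils, and a set present on both arrays. Cd83, Cd86, Pvr and Cd40 passed 4-fold toward dendritic cells, while Cd80, Icosl, Cd274, Pdcd1lg2 and Lgals9 were above the floor on both arrays and under 4-fold apart. Cd276 was under the floor on both. With the probe set of highest mean log2 signal standing for a gene, none of the 9 measured genes was at least 4-fold brighter in eosinophils, against 5.35% of all 7994 measured genes, and 4 passed 4-fold toward dendritic cells, also against 5.35% of all genes. Counted by probe set, 0 of 19 passed 4-fold toward eosinophils (4.80% of all 13779) and 6 toward dendritic cells (5.10%). The median log2 difference was -0.18 over the 9 genes and 0.16 over all measured genes. In sorted pools such as these, fewer cells that carry a transcript and less of it in each cell cannot be told apart.

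**Figure D1:**
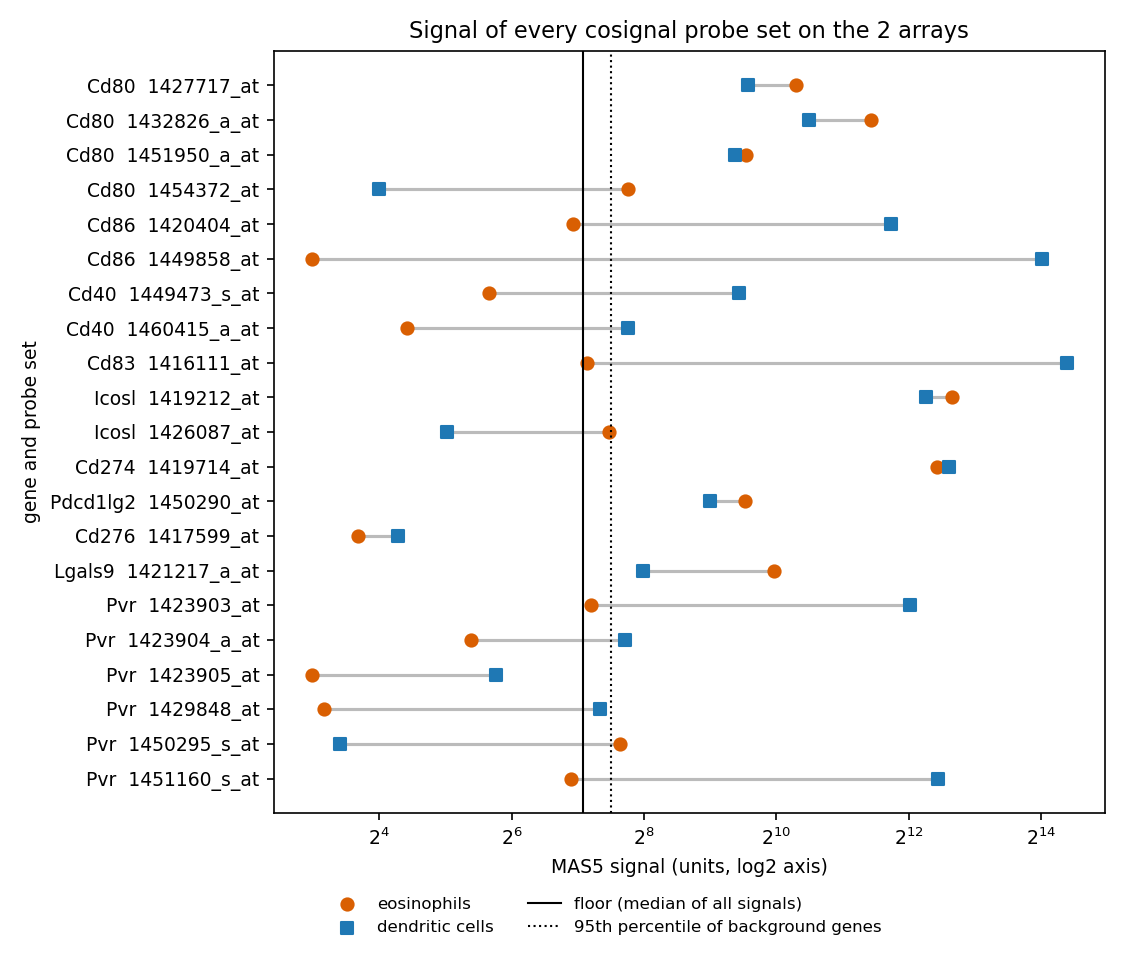
MAS5 signal (log2 axis) of each of the 21 cosignal probe sets, with eosinophils as circles and dendritic cells as squares, the floor as a solid line and the 95th percentile of background genes as a dotted line. The eosinophil points of Cd83, Cd86 and Cd40 lie under the dotted line while their dendritic cell points lie above it, and the brightest probe sets of Cd80, Icosl, Cd274, Pdcd1lg2 and Lgals9 lie above it on both arrays.

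Cd83 and Cd40, genes of mature antigen-presenting cells, were bright in dendritic cells and near or under the floor in eosinophils. CD83 is a membrane protein of mature dendritic cells that holds CD86 and class II molecules at the surface by opposing their ubiquitin ligase MARCH1. Cd83 has 1 probe set (1416111_at), with 141 units in eosinophils against 21500 units in dendritic cells, a difference of 153-fold. Its eosinophil signal was just above the floor and under the 95th percentile of background genes, so the fold may be a lower bound. Of the 8850 probe sets above the floor on both arrays, 3 differed further toward dendritic cells.

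Cd40 has a pair of probe sets, and both were above the floor in dendritic cells only. 1449473_s_at reached 50.5 units in eosinophils against 693 units in dendritic cells, at least 5.15-fold apart. 1460415_a_at gave 21.4 units in eosinophils against 216 in dendritic cells (at least 1.60-fold). The second bound is small because its dendritic cell signal was itself near the floor, and with it, or with the mean of both, or with the floor at 182 units, Cd40 was under 4-fold apart (log2 differences of -0.68, -1.52 and -1.93).

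Cd86 and Cd80, the B7 pair, differed in pattern. Cd86 was above the floor in dendritic cells only, on both of its probe sets. 1449858_at gave 7.89 signal units in eosinophils and 16611 in dendritic cells, at least 123-fold apart. 1420404_at, which has the higher mean log2 signal and therefore stood for the gene, had a signal of 122 units in eosinophils, against 3398 units in dendritic cells, at least 25.2-fold apart. Both probe sets lead to the same order of the populations, but the size of the bound depends on the probe set chosen, by 2.29 on the log2 scale.

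Cd80 was on both arrays and somewhat brighter in eosinophils on the deposited scale. The brightest of its 4 probe sets, 1432826_a_at, reached 2748 units in eosinophils against 1448 units in dendritic cells (1.90-fold). 1427717_at gave 1261 signal units in eosinophils and 757 in dendritic cells (1.67-fold), and 1451950_a_at gave 743 units in eosinophils against 661 in dendritic cells (1.12-fold). These differences reach from 0.17 to 0.92 on the log2 scale, against a spread between probe sets of 0.73. The dimmest probe set, 1454372_at, was above the floor in eosinophils only, with 217 units there against 16.0 in dendritic cells (at least 1.61-fold). All 4 pointed to eosinophils, although the difference turned to -0.12 when the arrays were centred on their hybridisation spike controls.

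**Figure D2:**
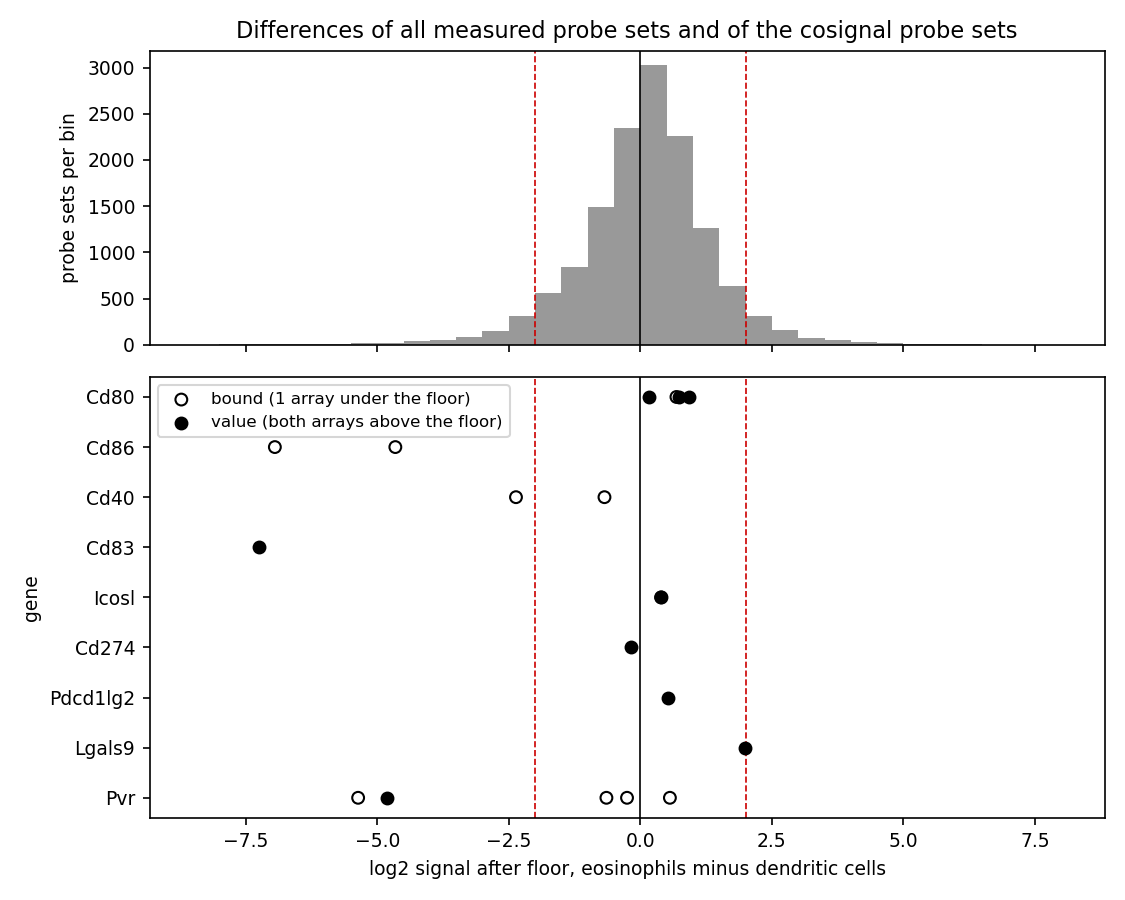
Top, histogram of the log2 difference (eosinophils minus dendritic cells, after the floor) of all 13779 measured probe sets in bins of 0.5; bottom, the 19 measured cosignal probe sets by gene, filled where both arrays were above the floor and open where the value is a bound. Dashed lines mark 4-fold. The probe sets of Cd86, Cd83 and 2 of Pvr lie far left of the dashed line. The filled points of Cd80, Icosl, Cd274 and Pdcd1lg2 lie within 2-fold, on a scale whose centring can turn their direction. The open points of Cd80 and Icosl are lower bounds, so these folds may be larger.

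Icosl, the ligand of ICOS, had a signal of 6419 units in eosinophils, against 4911 units in dendritic cells with 1419212_at (1.31-fold). Its other probe set, 1426087_at, was dim, with 177 units in eosinophils against 32.5 units in dendritic cells, at least 1.31-fold apart and under the background percentile on both arrays. The difference of the bright probe set, 0.39 on the log2 scale, was under the spread between probe sets, and it was -0.65 after centring on the spike controls.

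The PD-1 ligands were on both arrays, at similar signals in each on the deposited scale. Cd274, which encodes PD-L1, reached 5522 units in eosinophils against 6255 units in dendritic cells with its only probe set, 1419714_at (1.13-fold). Its log2 difference of -0.18 became 0.030 with loess and 0.094 with centring on housekeeping genes. With centring on the spike controls it was -1.22, so no direction is given for Cd274. Pdcd1lg2, which encodes PD-L2, gave 737 signal units in eosinophils and 512 in dendritic cells with 1450290_at (1.44-fold, 0.52 on the log2 scale), or -0.52 after centring on the spike controls. On the deposited scale both differences were smaller than the spread between probe sets.

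Lgals9 encodes galectin-9, a secreted lectin that binds the inhibitory receptor TIM-3 among other glycoproteins. Its only probe set, 1421217_a_at, had a signal of 1003 units in eosinophils, against 253 units in dendritic cells, 3.96-fold, just under the 4-fold mark. It was the one cosignal gene at least 2-fold brighter in eosinophils, where 19.0% of all measured genes were. In the other direction, 4 of the 9 passed 2-fold toward dendritic cells, against 15.5% of all genes. Lgals9 was brighter in eosinophils under all 12 settings of scale, floor and probe set, from 0.94 to 2.26 on the log2 scale, and passed 4-fold under 1 of them, centring on housekeeping genes.

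Pvr encodes CD155, a nectin-like adhesion protein that binds CD226, TIGIT and CD96. It has 6 probe sets, and they disagreed. In the maker's naming, the letter s marks probes that can match several different transcripts. These include 1451160_s_at, which stood for Pvr, the discordant 1450295_s_at, and 1449473_s_at, which stood for Cd40. The brightest, 1451160_s_at and 1423903_at, were far brighter in dendritic cells. 1451160_s_at gave 119 units in eosinophils against 5547 in dendritic cells, at least 41.2-fold apart. 1423903_at gave 146 units in eosinophils against 4143 in dendritic cells, 28.3-fold apart, with its eosinophil signal under the background percentile.

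The dimmer Pvr probe sets gave small bounds in either direction. 1423904_a_at gave 41.9 units in eosinophils against 211 in dendritic cells (at least 1.56-fold), and 1429848_at was under the floor in eosinophils and at 161 units in dendritic cells (at least 1.19-fold). 1450295_s_at pointed the other way, with 199 units in eosinophils against 10.6 units in dendritic cells (at least 1.48-fold). The last Pvr probe set, 1423905_at, passed the floor on neither array (7.88 units in eosinophils, 54.2 units in dendritic cells). Over the 5 measured probe sets the log2 differences spanned 5.92. Of the 2839 genes with at least 2 measured probe sets, 4, with Pvr, spanned that much or more. The same span was 2.29 for Cd86, reached or exceeded by 8.45% of those genes, 1.68 for Cd40 (20.1%), 0.76 for Cd80 (56.9%) and 0.0065 for Icosl (99.5%).

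Cd276, which encodes B7-H3, reached 12.8 units in eosinophils against 19.5 units in dendritic cells with 1417599_at. It was not detectable at this brightness on either array.

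RefSeq promoters (build GRCm38.p6) were at hand for 6 of the genes: Cd80, Icosl, Cd274, Pdcd1lg2, Cd276 and Lgals9. Those of the 5 genes that both arrays detected above the floor are shown, since these are the cosignals that the eosinophil array carried as well as the dendritic cell array. Each runs 5′ to 3′ over the 250 bases before the transcript start, with matches to the searched motifs in capitals. Cd80 lies at chr16:38458683-38458932 (plus strand), Icosl at chr10:78069118-78069367 (plus strand), Cd274 at chr19:29367188-29367437 (plus strand), Pdcd1lg2 at chr19:29410669-29410918 (plus strand) and Lgals9 at chr11:78984925-78985174 (minus strand). In the RefSeq table the Cd80 and Cd274 windows lie inside the gene, whose annotated span begins further upstream, and the other windows end at the gene's start.
Cd80: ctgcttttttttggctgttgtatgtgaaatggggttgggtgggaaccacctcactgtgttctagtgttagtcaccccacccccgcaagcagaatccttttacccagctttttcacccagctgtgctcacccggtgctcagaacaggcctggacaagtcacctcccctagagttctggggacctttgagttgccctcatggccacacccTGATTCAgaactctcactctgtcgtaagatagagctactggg
Icosl: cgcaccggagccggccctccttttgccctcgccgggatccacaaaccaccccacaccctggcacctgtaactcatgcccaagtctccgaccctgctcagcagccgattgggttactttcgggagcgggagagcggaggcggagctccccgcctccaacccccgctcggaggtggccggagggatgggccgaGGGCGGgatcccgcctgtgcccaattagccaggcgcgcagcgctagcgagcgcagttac
Cd274: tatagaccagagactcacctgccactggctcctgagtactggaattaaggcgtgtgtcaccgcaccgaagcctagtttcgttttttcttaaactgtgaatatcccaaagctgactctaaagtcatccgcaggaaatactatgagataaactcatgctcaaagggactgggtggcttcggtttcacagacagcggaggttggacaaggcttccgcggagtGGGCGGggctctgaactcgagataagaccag
Pdcd1lg2: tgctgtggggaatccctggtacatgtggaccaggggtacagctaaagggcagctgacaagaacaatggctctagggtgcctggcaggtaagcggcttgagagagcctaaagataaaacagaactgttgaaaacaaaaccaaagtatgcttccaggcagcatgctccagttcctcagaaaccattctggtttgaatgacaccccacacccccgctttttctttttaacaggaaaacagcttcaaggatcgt
Lgals9: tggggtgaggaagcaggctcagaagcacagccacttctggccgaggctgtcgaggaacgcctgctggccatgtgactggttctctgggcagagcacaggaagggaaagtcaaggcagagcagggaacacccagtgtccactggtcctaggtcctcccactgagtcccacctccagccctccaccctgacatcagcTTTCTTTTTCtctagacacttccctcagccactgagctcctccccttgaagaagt

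The search covered 7 motifs on both strands: GGG, any 3 bases and TTCC for NF-kB, GAAA, any 2 bases and GAAA for the interferon-stimulated response element, TTCNNNGAA for STAT proteins, TGANTCA for AP-1, GAGGAAGT for PU.1, TATAAA and GGGCGG for Sp1. The Cd80 window holds 1 AP-1 match (TGATTCA), from base -42 to base -36 before the start, a motif found in 6.75% of all 32851 promoter windows of this length. The Lgals9 window holds 1 interferon-stimulated response match on the minus strand, from base -55 to base -46, which is found in 2.98% of all windows. The Icosl window holds 1 Sp1 match, from base -59 to base -54, and the Cd274 window holds 1, from base -31 to base -26. The Sp1 motif is found in 32.7% of all windows. None of the 7 motifs as spelled here is in the Pdcd1lg2 window, and other spellings of them, such as wider forms of the NF-kB motif, were not searched. No motif overlapped another in these windows. The matches describe letters only.

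The T cell receptors for these ligands were examined in the same populations, as were the T cell markers. Of the 9 receptors listed, 7 had a probe set and 4 passed the floor in 1 population or both. None of the 4 passed 4-fold toward eosinophils and 1 did toward dendritic cells, against 5.35% of all genes each way. The count toward dendritic cells was 2 after centring on the spike controls, with which 1153 of all 8147 measured genes passed. The median log2 difference of the receptors was -1.08. Havcr2, which encodes TIM-3, the receptor of galectin-9, gave 65.2 signal units in eosinophils and 6026 in dendritic cells, at least 44.7-fold apart, so this receptor and Lgals9 had opposite orders on these arrays. Ctla4 had a signal of 24.7 units in eosinophils, against 452 units in dendritic cells (at least 3.35-fold). Cd28 reached 231 units in eosinophils against 5.01 units in dendritic cells (at least 1.71-fold). The other Cd28 probe set was under the floor on both arrays. Icos gave 136 units in eosinophils against 180 in dendritic cells (1.33-fold), under the background percentile on both arrays. The other Icos probe set differed by -0.86 (log2), which places its dendritic cell signal above that percentile.

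Pdcd1, Cd40lg and Cd96 were under the floor on both arrays. Pdcd1, the PD-1 receptor gene, gave 54.4 signal units in eosinophils and 14.5 in dendritic cells. Cd40lg had a signal of 77.7 units in eosinophils, against 93.9 units in dendritic cells, and Cd96 gave 91.4 units in eosinophils against 6.72 in dendritic cells. Among T cell markers, 2 of 8 were above the floor on each array, Cd3e (336 units in eosinophils, 557 units in dendritic cells) and Cd8a (141 units in eosinophils, 3732 units in dendritic cells), the second of which some dendritic cells also express. Cd3d, Cd3g, Cd4, Cd8b1, Cd2 and Cd247 were under the floor on both arrays. The 8 markers summed to 730 units in eosinophils, against 4597 units in dendritic cells, of which Cd8a alone gave 3732. The part of T cells in the Ctla4 signal was not tested.

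Among other cosignal ligands, those furthest apart were Vsir and Cd244a toward eosinophils and Tnfsf9 toward dendritic cells. Of 14 measured, 2 passed 4-fold toward eosinophils (14.3%) and 1 toward dendritic cells (7.14%), against 5.35% of all genes each way. The list's median difference was 0.49 (log2), or -0.34 after centring on the spike controls. Vsir, which encodes VISTA, an inhibitory B7 family protein, reached 3765 units in eosinophils against 308 units in dendritic cells (12.2-fold), and its other probe set differed by 3.17 (log2). Cd244a, the receptor 2B4 of the SLAM family, gave 8424 signal units in eosinophils and 835 in dendritic cells (10.1-fold). Its own ligand Cd48 had a signal of 1735 units in eosinophils, against 915 units in dendritic cells (1.90-fold).

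In dendritic cells the brighter members of that list were Tnfsf9, which encodes the 4-1BB ligand, and Icam1, the adhesion ligand of LFA-1. Tnfsf9 reached 7.77 units in eosinophils against 542 units in dendritic cells, at least 4.02-fold apart, or under 4-fold with the floor at 182 units or with housekeeping centring. Icam1 gave 1351 signal units in eosinophils and 4961 in dendritic cells (3.67-fold). The costimulatory TNF ligands Tnfsf4, Tnfsf14 and Cd70 were under the floor on both arrays.

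Among genes of CD40 signalling, those furthest apart were brighter in dendritic cells, as Cd40 itself was. Of 11 measured, none was at least 4-fold brighter in eosinophils and 3 passed 4-fold toward dendritic cells (27.3%, against 5.35% of all genes). That count was 5 after centring on the spike controls, with which 1153 of all 8147 measured genes passed. The count for CD40 signalling was 2 with the mean of all probe sets or with the probe set of smallest difference. The median log2 difference was -0.55. Traf1, an adaptor of TNF receptors, had a signal of 32.2 units in eosinophils, against 4291 units in dendritic cells (at least 31.8-fold). Rel, which encodes the NF-kB subunit c-Rel, gave 135 units in eosinophils, at the floor, and 1640 units in dendritic cells (12.1-fold). Nfkb2, the precursor of p52 in the alternative NF-kB pathway, reached 228 units in eosinophils against 1205 units in dendritic cells (5.30-fold). The other Nfkb2 probe set differed by -1.40 (log2), under 4-fold. Relb, the partner of p52, gave 134 units in eosinophils, under the floor, and 509 units in dendritic cells (at least 3.78-fold). With the probe set that stood for each gene, Traf5 was the exception above 2-fold. It gave 616 units in eosinophils against 256 units in dendritic cells (2.41-fold). Birc3 was also brighter in eosinophils (1.91-fold), with its other probe set at 1.53 on the log2 scale in the same direction.

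**Figure D3:**
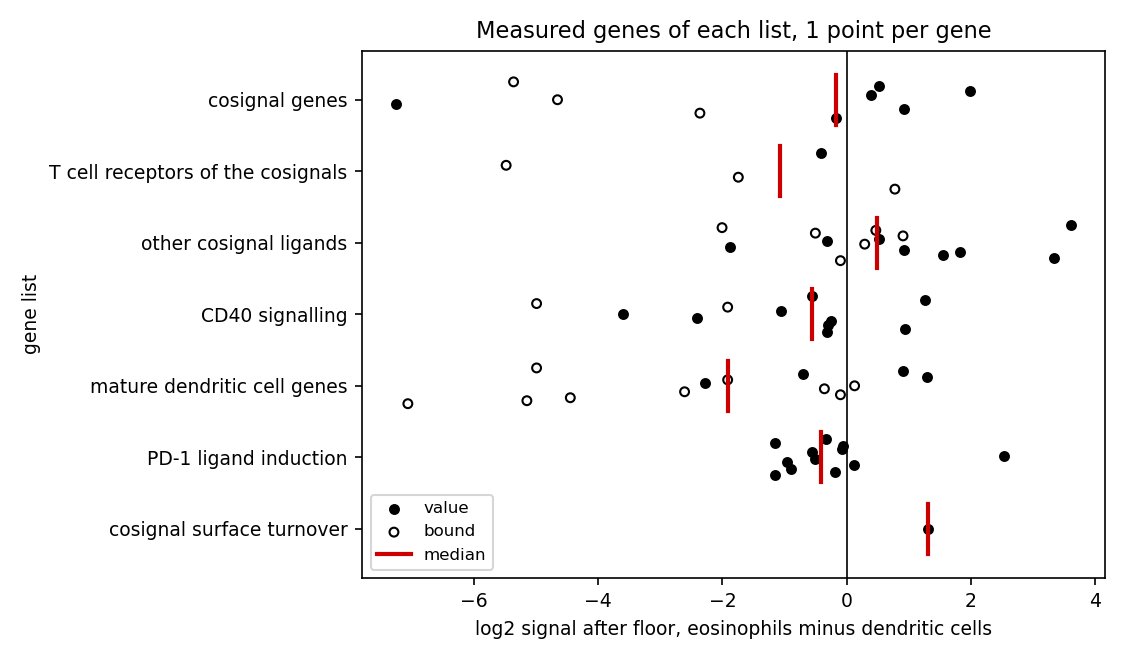
Log2 difference (eosinophils minus dendritic cells, after the floor) of each measured gene of the cosignal list and the 6 pathway lists, 1 point per gene, filled for values and open for bounds, with the median of each list as a red bar. The medians lie at -0.18 for the cosignal genes, 0.49 for other cosignal ligands (-0.34 after centring on the spike controls), -0.55 for CD40 signalling, -1.92 for mature dendritic cell genes and -0.42 for PD-1 ligand induction.

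Mature dendritic cell genes were set beside Cd83, Cd86 and Cd40, which belong to the same state; the list shares Traf1 and Relb with that of CD40 signalling. Of 13 measured, none was at least 4-fold brighter in eosinophils and 6 passed 4-fold toward dendritic cells (46.2%). Of all genes, 5.35% passed each way. The list's median log2 difference was -1.92. The chemokine Ccl17 gave 82.5 signal units in eosinophils and 18045 in dendritic cells (at least 134-fold), and Ccl22 gave 69.4 units in eosinophils against 4781 in dendritic cells (at least 35.5-fold). The lymph node homing receptor Ccr7 had a signal of 95.3 units in eosinophils, against 2945 units in dendritic cells (at least 21.9-fold). Samsn1, by contrast, reached 2962 units in eosinophils against 1204 units in dendritic cells (2.46-fold), and Il4i1 and Il15 were under the floor on both arrays.

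Genes that act upstream of the PD-1 ligands were on both arrays, as Cd274 and Pdcd1lg2 were. PD-L1 is induced by interferon gamma through STAT and IRF factors, and PD-L2 by IL-4 and GM-CSF. All 12 measured genes of this list were above the floor on both arrays. Of these, 1 was at least 4-fold apart, toward eosinophils (8.33%, against 5.35% of all genes). After centring on the spike controls none passed 4-fold toward eosinophils and 2 did toward dendritic cells. With that centring 1153 of all 8147 measured genes passed 4-fold toward dendritic cells and 161 toward eosinophils. The list's median log2 difference was then -1.46, against -0.42 on the deposited scale. The gene toward eosinophils, Irf2, a repressor and competitor of IRF1, gave 1946 signal units in eosinophils and 338 in dendritic cells (5.76-fold, and under 4-fold after centring on the spike controls). The kinase Jak2 had a signal of 11540 units in eosinophils, against 12072 units in dendritic cells (1.05-fold). The other Jak2 probe set differed by -1.63 (log2), toward dendritic cells. The activator Irf1 gave 1451 units in eosinophils against 2064 in dendritic cells (1.42-fold).

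Stat3 and Csf2ra were the others above 2-fold with the probe set that stood for the gene. Stat3 reached 1062 units in eosinophils against 2363 units in dendritic cells (2.22-fold). Csf2ra, the GM-CSF receptor alpha chain, gave 2191 signal units in eosinophils and 4905 in dendritic cells (2.24-fold), with another probe set at 1.14 on the log2 scale in the opposite direction. Il4ra, the IL-4 receptor alpha chain, gave 469 units in eosinophils against 908 units in dendritic cells (1.94-fold). Cmtm6, whose product keeps PD-L1 at the cell surface, had a signal of 2549 units in eosinophils, against 1034 units in dendritic cells (2.47-fold), with its other probe set at 0.97 on the log2 scale. It was the 1 gene of 4 with a role in the surface turnover of these proteins that had a probe set here.

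Some cosignals are also carried by B cells and macrophages, so the markers of those cells are given beside them. Of 7 B cell markers, 1 (Fcer2a, 251 units) was above the floor in eosinophils and none in dendritic cells. Cd79a, Cd79b, Ms4a1 and Pax5 were under the floor on both arrays, and the 7 summed to 587 units in eosinophils, against 364 units in dendritic cells. Of 10 macrophage markers, 3 were above the floor in eosinophils and 5 in dendritic cells, where 52.8% and 47.2% of all probe sets were. The 10 markers summed to 2340 units in eosinophils, against 7152 units in dendritic cells. Cd14 was under the floor in eosinophils and at 2641 units in dendritic cells, C1qb gave 37.5 units in eosinophils against 363 in dendritic cells, and Fcgr1, Cx3cr1 and Mrc1 were under the floor on both. Cd68 gave 672 units in eosinophils against 2573 in dendritic cells. Mertk went the other way, with 258 units in eosinophils against 59.1 in dendritic cells, under the floor. Dendritic cells can also express Cd14 and Csf1r. The part of macrophages in the dendritic cell signals of Cd86, Cd40, Cd83 and Pvr was not tested.

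**Figure D4:**
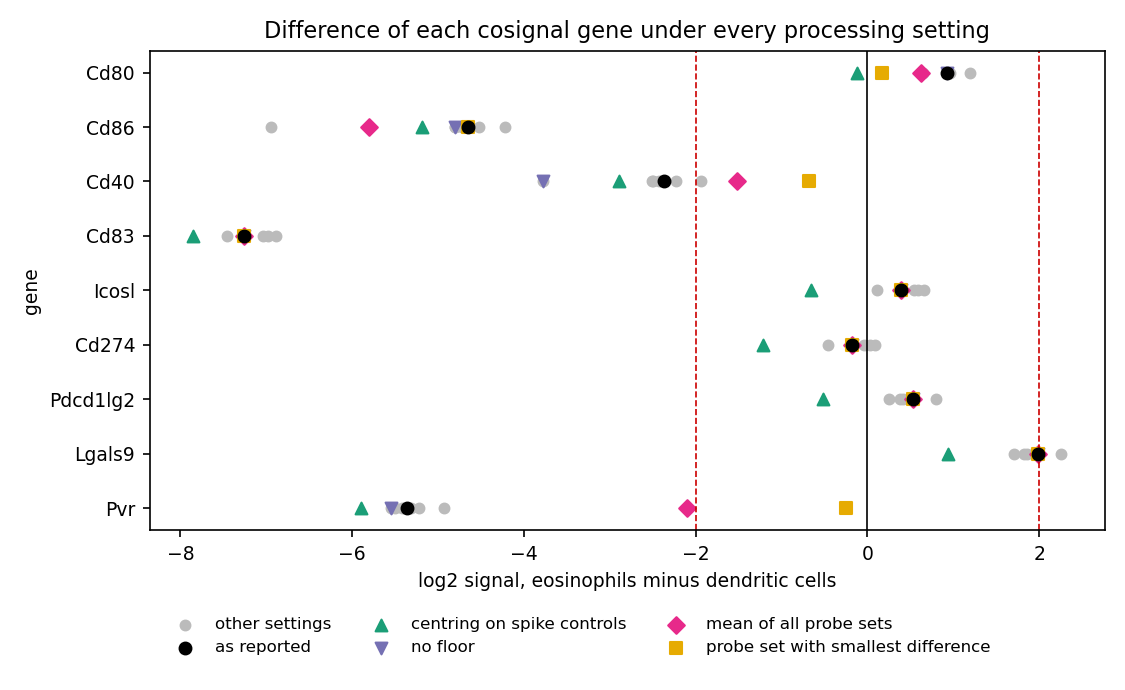
Log2 difference (eosinophils minus dendritic cells) of each of the 9 measured cosignal genes as reported (black) and under the other settings of scale, floor and probe set, with dashed lines at 4-fold. Cd83 and Cd86 stay beyond 4-fold in all 12 settings, Pvr in 11 and Cd40 in 9, while Cd80, Icosl and Pdcd1lg2 change sides of 0 with spike control centring and Cd274 with loess and housekeeping centring.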

How the data were processed

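RNA of 2 sorted populations was measured on 1 array each. The deposited values are signal intensities on a linear scale, 1 per probe set, and the authors made them with MAS5 (version 5.0) according to the submitters' processing notes. Their mean without the lowest and highest 2% was 500.2 in eosinophils and 500.3 in dendritic cells, so both share a global scale. Detection calls and probe-level background were not used here. The number of arrays limits the precision.

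Of 22690 probe sets, 20393 had 1 gene in the platform annotation, 691 had several and were not named, and 1606 had none. The Entrez identifier gave 20364 of them a current symbol. From these intensities log2 differences after the floor were computed (Python 3.11.15, pandas 2.3.3), as stated with the results, for 12393 genes. The floor and the 4-fold call were run on simulated data for genes above the floor on both arrays. The noise in these data was the spread between probe sets, not replicate error. Genes whose fold is a bound, such as Cd86, Cd40 and Pvr, were not simulated. Alternatives were 5 other scales, lower, higher or no floor, different probe set choices, and 2-fold or 10-fold marks. The genes named are all 10 cosignals and, of each pathway list, up to 4 measured genes with the largest difference (all receptors and turnover genes). Cd48, Traf5, Birc3, Samsn1, Jak2, Irf1 and genes under the floor were named after their values were seen. The members and lists were chosen with earlier results of these data known. A listed gene with no probe set of its own was not analysed here.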

Additional observations from a re-analysis of the deposited data

How the results depend on the processing

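No cosignal gene that was at least 4-fold apart changed direction under any alternative run. The count of cosignal genes at least 4-fold brighter in eosinophils was 0, and 1 (Lgals9) with housekeeping centring or at 2-fold. The count brighter in dendritic cells was 4, and 2 when the probe set with the smallest difference stood for a gene, which left Cd83 and Cd86. It was 3 at 10-fold, with the mean of all probe sets, and with the floor at the background percentile. The median log2 difference of -0.18 became -1.22 with centring on the 18 spike control probe sets (2.06-fold higher in eosinophils). That centring took the median of all measured genes to -0.63, and housekeeping, median, quantile and loess scaling took it to 0.36, -0.056, 0.046 and 0.0081. Over the single genes and pathway lists, 37 values moved and 260 did not. The rule that takes the highest mean log2 signal after the floor, chosen after seeing the data, changed Cd86 to -6.95. No paired analysis was possible because there is 1 array per population. Brightness over background limits dim probe sets to small bounds.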
